A study of Rattus norvegicus with 18 samples.

Results

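The genes described here are 8 interferon response genes of the rat. They were taken by symbol: the transcription factors Stat2, Irf9, Irf1 and Irf7, and the effectors Ifitm2, Ifitm3, Isg15 and Mx1. All 8 were listed in both gene tables of the study, among 12560 genes at day 7 and 31038 at day 30, and all 8 passed the filter on low counts at both days. RNA was sequenced from motor cortex after spinal cord injury, in material that the series describes as primary neurons enriched from that tissue. The 18 libraries form 6 groups of 3. At day 7 the groups were male inj (libraries 2, 3 and 4) and male Sham (1, 1-RNA and 3). At day 30 they were male In (1, 2 and 3), male S (1, 2 and 4), female In (1, 2 and 3) and female S (1, 2 and 3). The labels name no strain, age, genotype, injury method or further treatment. In and S are not spelled out either, and both names are used here as they stand. Whether the 3 replicates of a group came from separate animals is not stated, so the p-values below measure the spread between libraries, which may be technical. Sham 1 and Sham 1-RNA may be 1 sample or different ones, which the labels do not settle.

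Interferons are secreted cytokines of antiviral defence. Type I interferons bind the receptor made of Ifnar1 and Ifnar2, whose kinases Jak1 and Tyk2 phosphorylate Stat2; it joins Irf9 in the complex ISGF3, which binds the interferon-stimulated response element (ISRE) of target genes. Interferon gamma signals through Ifngr1 and Ifngr2, acts on genes that carry the gamma-activated sequence (GAS) and induces Irf1. Irf7 is the factor that amplifies type I interferon production. In the brain, microglia, astrocytes and endothelium are known to respond to interferons, as do neurons.

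Promoters are shown first, for letters that the factors of this pathway are known to bind. Every member with a match is printed, whether or not it rose at day 7. RefSeq (build GRCr8) gave a promoter for 7 of the 8 members, all but Isg15. The 250 bases before each start were searched on both strands for GAAANNGAAA (the core of an ISRE), GAAANGAAA (the same repeat with 1 base between) and TTCNNNGAA (a GAS); capitals mark the matches, and sequences read 5′ to 3′ on the gene's strand.
Ifitm2, chr1:205482349-205482408, minus strand: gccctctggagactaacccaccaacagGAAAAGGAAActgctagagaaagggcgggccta
Ifitm3, chr1:205541759-205541818, minus strand: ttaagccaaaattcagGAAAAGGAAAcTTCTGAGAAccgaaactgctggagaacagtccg
Irf1, chr10:38417778-38417837, plus strand: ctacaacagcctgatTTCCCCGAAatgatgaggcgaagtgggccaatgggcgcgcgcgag
Irf7, chr1:205800048-205800107, minus strand: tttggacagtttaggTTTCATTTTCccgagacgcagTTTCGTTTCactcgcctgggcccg
Irf9, chr15:33065722-33065781, plus strand: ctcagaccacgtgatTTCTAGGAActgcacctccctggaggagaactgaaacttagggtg
The ISRE core was found in 3 of the 7 promoters (Ifitm2, Ifitm3 and Irf7) and in 3.41% of 33469 rat promoters. In Ifitm2 it lay 33 to 24 bases before the start, in Ifitm3 44 to 35 bases before it, and in Irf7, on the other strand, 69 to 60 bases before it. The repeat with 1 base between was found in Irf7 alone of the 7, 48 to 40 bases before the start, and in 2.96% of all promoters. A GAS was found in 3 of the 7 and in 7.67% of all promoters: 33 to 25 bases before the start of Ifitm3, 142 to 134 before that of Irf1, and 99 to 91 before that of Irf9. The promoters of Stat2 and Mx1 were searched and held no match. No printed match overlaps another. A match describes letters in a window and is no measured binding site.

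Depth differed between the day 7 groups. The Sham libraries held 2683105 to 3014083 counts, the inj libraries 14650528 to 17013273, and the day 30 libraries 14532252 to 18211986 apart from male S 1 with 27849794. A count of 3 corresponds to 1.09 to 1.23 CPM (counts relative to the TMM-scaled total of their library) in Sham and to 0.114 to 0.288 CPM elsewhere. Some libraries stood apart. The myelin gene Mbp took 5.81% of the counts of Sham 1-RNA against 13.6% and 14.5% in the other Sham libraries, and 0.551% in male In 1. In male S 4, 40.6% of reads did not align uniquely, against 16.4 to 25.6% in the other day 30 libraries. Markers of glia and vessels were read in every library beside those of neurons: the 12 microglia and macrophage markers together made 466 to 2454 CPM and the 12 endothelial markers 326 to 2992 CPM, beside 1353 to 4700.1 CPM for 10 neuronal markers. Levels of different genes are not compared, since CPM are not per length, and levels are not compared between days, whose tables were made differently.

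At day 7, Irf1, Irf9, Ifitm2 and Ifitm3 rose in inj against Sham, 4 of the 8 members, and none fell. Among all 11786 genes tested, 19.3% rose and 15.4% fell, the background against which the 4 of 8 are read. The median log2 fold change of the 8 members was 0.89, against -0.0020 over all genes tested. All 3 inj libraries lay above all 3 Sham libraries for 5 members (the 4 named and Stat2), as they did for 26.4% of all genes tested. In this bulk RNA, more cells of a type that expresses a gene and more RNA of that gene per cell cannot be told apart.

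Among the factors, Irf1 showed the widest gap. Its level in Sham 1, 1-RNA and 3 was 5.74, 6.91 and 7.69 CPM, and in inj 2, 3 and 4 it was 15.96, 18.5 and 21.5 CPM. The lowest inj library was thus above the highest Sham library, though the Sham values rest on 14, 19 and 20 counts. Irf1 rose by 1.45 ± 0.22 on the log2 scale (SE, n = 3 per group; edgeR, adjusted p = 0.000769), a 2.74-fold change. Irf9, the DNA-binding subunit of ISGF3, stood at 13.5, 8.73 and 9.62 CPM in Sham 1, 1-RNA and 3 and at 21.2, 21.6 and 20.2 CPM in inj 2, 3 and 4. The inj libraries lay close together and clear of all Sham libraries, and Irf9 rose by 0.99 ± 0.20 (adjusted p = 0.00377).

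Stat2, the STAT subunit of the same complex, changed less than its spread allowed to call. Its Sham levels were 31.6, 25.5 and 28.5 CPM and its inj levels 35.5, 37.1 and 38.1 CPM. The groups did not overlap, but the log2 difference of 0.37 ± 0.14 missed the threshold (adjusted p = 0.0659; 95% interval 0.06 to 0.69). Irf7 was spread widely within Sham, at 10.2, 14.2 and 19.2 CPM, and stood at 14.7, 15.7 and 21.0 CPM in inj. The groups overlapped and the log2 difference was 0.23 ± 0.25 (adjusted p = 0.502; 95% interval -0.32 to 0.78).

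Both interferon-induced transmembrane proteins rose. Ifitm2 and Ifitm3 encode membrane proteins that hinder the entry of enveloped viruses into cells. Ifitm2 stood at 8.60, 8.73 and 10.0 CPM in Sham 1, 1-RNA and 3 and at 24.5, 25.6 and 27.7 CPM in inj 2, 3 and 4. The replicates of each group lay close together, and the rise was 1.51 ± 0.17 (adjusted p = 0.000161), or 2.84-fold. Ifitm3 stood at 12.3, 10.2 and 10.4 CPM in Sham and at 28.6, 21.8 and 46.9 CPM in inj. Its inj libraries had the widest spread of any member (coefficient of variation 40.1%), all of them above Sham, and the rise was 1.57 ± 0.31 (adjusted p = 0.00328). These paralogs have similar sequences, so how reads were divided between them and other Ifitm copies is uncertain, and the individual values carry that limit.

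The other effectors did not pass the test. Isg15, a ubiquitin-like protein that is coupled to other proteins, stood at 4.10, 4.73 and 6.54 CPM in Sham 1, 1-RNA and 3 and at 6.95, 4.22 and 9.07 CPM in inj 2, 3 and 4. With 10, 13 and 17 counts behind the Sham values, the overlapping groups gave 0.39 ± 0.36 (adjusted p = 0.439; 95% interval -0.42 to 1.21). Mx1, a dynamin-like GTPase that blocks viral replication, stood at 4.92, 2.55 and 2.31 CPM in Sham and at 5.84, 6.51 and 4.37 CPM in inj. The Sham values rest on 12, 7 and 6 counts and overlap those of inj, and the log2 difference was 0.79 ± 0.36 (adjusted p = 0.119; 95% interval -0.02 to 1.59). With library totals as the scale, which moved the median of all genes to 0.28, Stat2 (0.66, adjusted p = 0.00653) and Mx1 (1.07, adjusted p = 0.0371) passed as well. Both values include that shift.

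**Figure D1:**
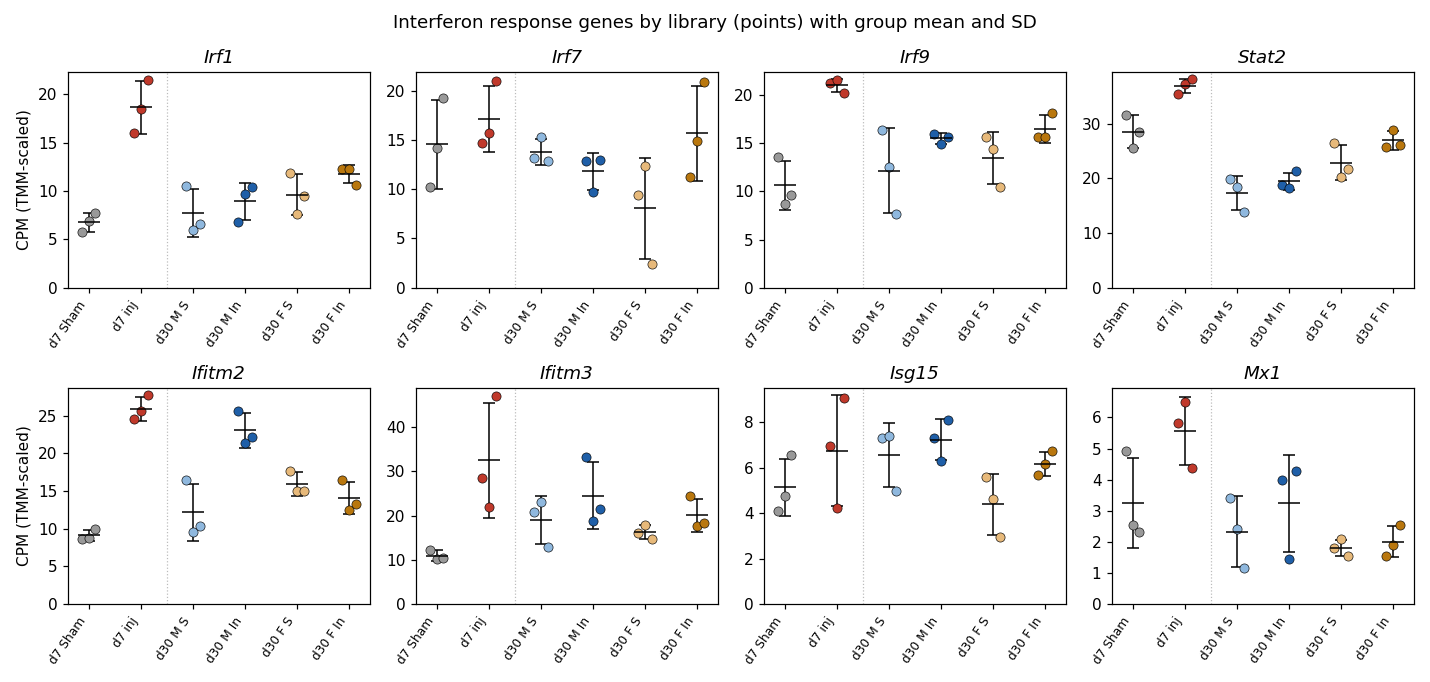
Level of each gene in CPM (vertical axes from 0, TMM-scaled) in every library (points), with the mean and SD of each group of 3 (bars), by day, sex (M, F) and condition. The day 7 inj points lie above all Sham points for Irf1, Irf9, Stat2, Ifitm2 and Ifitm3, and overlap them for Irf7, Isg15 and Mx1; the dotted line separates days, whose levels are not comparable.

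The rest of the pathway was read from lists of other genes, beside the 19.3% of all genes tested that rose at day 7. None of the 12 interferon genes searched for was listed at day 7. Of the 7 receptor subunits and kinases tested, 5 rose and none fell, with a median of 1.21. They included the receptor subunits Ifngr1 (2.67 ± 0.17, adjusted p = 1.94e-05), Ifnar1 (1.76 ± 0.15, adjusted p = 3.33e-05), Il10rb, which interferon lambda and interleukin 10 receptors share (2.26 ± 0.22, adjusted p = 6.93e-05), and Ifngr2 (1.21 ± 0.17, adjusted p = 0.000491). The size for Il10rb rests on 27 counts over the 3 Sham libraries. Jak1 (0.17) and Jak2 (-0.11) did not pass. Of 8 other STAT and IRF factors, 4 rose (Irf5 0.62, Irf8 1.15, Stat3 0.63 and Irf3 0.71) and none fell, with a median of 0.61.

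Of 12 tested sensors of nucleic acid and their adaptors, 5 rose and none fell, with a median of 0.94. The adaptor of the cytosolic DNA pathway Tmem173, known as STING, rose by 3.43 ± 0.33 (adjusted p = 6.00e-05), the endosomal RNA receptors Tlr7 by 2.39 ± 0.30 (adjusted p = 0.000254) and Tlr3 by 2.48 ± 0.33 (adjusted p = 0.000387), and the RNA pathway adaptor Mavs by 1.13 ± 0.21 (adjusted p = 0.00216). Over the 3 Sham libraries together, Tmem173 had 13 counts, Tlr3 22, Tlr7 42 and Mavs 51, which limits the sizes of these rises. Of 26 other genes known to be induced by type I interferon, 7 rose and none fell, with a median of 0.64, where 19.3% of all genes tested rose. Among the 7 were Lgals9 (1.35), Lgals3bp (1.69), Ifit2 (1.55) and Bst2 (1.25). Of the 26, 20 were higher in inj. Group means were lower in inj for Eif2ak2 (28.9 CPM, Sham 37.8), Cmpk2 (20.8, Sham 23.0) and Rtp4 (7.10, Sham 9.20). Of 9 targets of interferon gamma, 4 rose and none fell (median 0.73): the peptide transporter Tap1 (2.46), the guanylate-binding proteins Gbp2 (0.88) and Gbp5 (0.73), and the immunoproteasome subunit Psmb8 (0.95). Tap1 had 24 counts over the 3 Sham libraries. Of 5 negative regulators, the phosphatase Ptpn6 rose (1.01) and the phosphatase Ptpn11 fell (-1.26).

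Markers of other cell types moved along with these genes. Of 12 microglia and macrophage markers 11 rose (median 2.44), and their summed level ran from 466 to 591 CPM in Sham and from 2268 to 2454 CPM in inj. All 12 endothelial markers rose (median 2.82; 326 to 457 CPM in Sham, 2535 to 2992 CPM in inj), and the 10 mural cell markers (pericytes and smooth muscle) all rose (median 2.61; 226 to 335 CPM in Sham, 1403 to 1559 CPM in inj). Of 10 neuronal markers 1 rose and 3 fell, and of 8 astrocyte markers 2 rose and 3 fell. No listed marker of these types was at 0 in either group. The part of these cells in the rises of Irf1, Irf9, Ifitm2 and Ifitm3 was not tested.

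**Figure D2:**
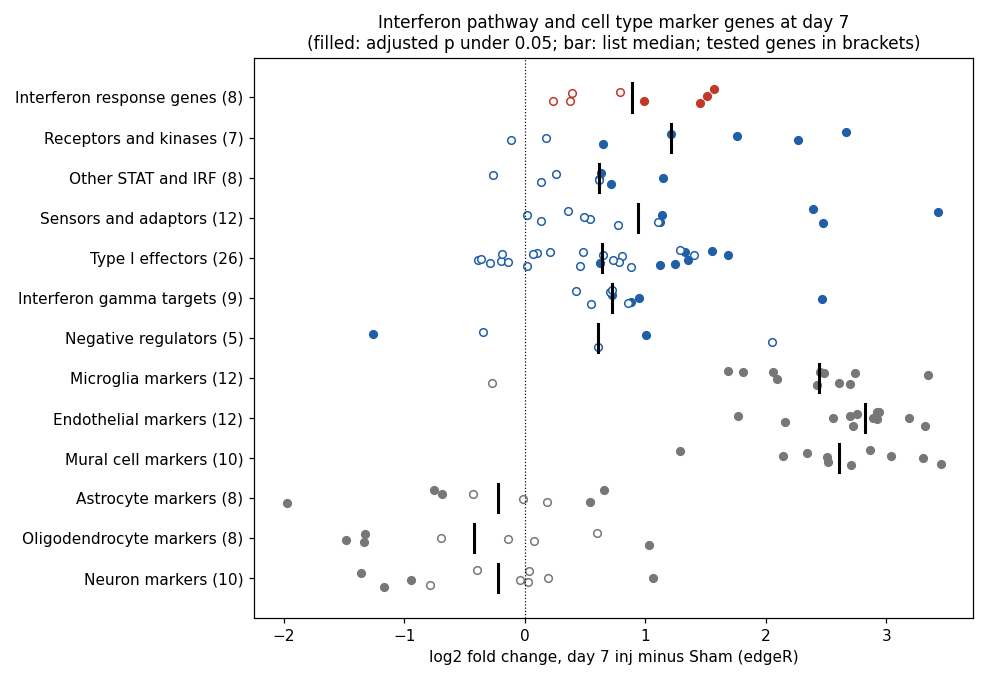
Log2 fold change of single genes at day 7, inj minus Sham (horizontal axis), by list (vertical axis, number of tested genes in brackets); filled points passed an adjusted p of 0.05 and the bar is the list's median. The 4 members that passed lie between 0.99 and 1.57, below the medians of the microglia (2.44), endothelial (2.82) and mural cell (2.61) marker lists.

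At day 30 in males no member passed the test between In and S (edgeR), and 0% of the 15074 genes tested did. Without adjustment, Ifitm2 alone of the 8 had a p under 0.05, as did 4.6% of all genes in the higher and 3.58% in the lower direction. DESeq2 called 2 genes and limma-voom with sample weights 1, none of them a member. The members' median log2 fold change was 0.27, against 0.02 over all genes. Without male S 4 this median was 0.09, without male In 3 it was 0.13 and without male S 1 it was 0.48; leaving out both male In 1 and male S 4 gave 0.0029. Ifitm2 was also the one member with all In libraries above all S libraries, as held for 6.3% of all genes. Its levels were 25.7, 21.3 and 22.2 CPM in male In 1, 2 and 3 and 16.5, 9.61 and 10.4 CPM in male S 1, 2 and 4. The log2 difference was 0.91 ± 0.21, or 1.87-fold, with an unadjusted p of 0.000585 from the edgeR fit across all genes and an adjusted p of 0.599, which ran from 0.106 to 0.976 over the alternatives.

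The other male values overlapped between In and S. Ifitm3, the paralog of Ifitm2, stood at 33.2, 18.8 and 21.5 CPM in In and at 20.8, 23.2 and 12.9 CPM in S, a log2 difference of 0.37 ± 0.24 (95% interval -0.15 to 0.88). The In value of 33.2 CPM belongs to male In 1, the library poor in Mbp, and the S value of 12.9 CPM to male S 4; without both libraries Ifitm3 was at -0.12. Irf1 gave 0.20 ± 0.26 (In 6.75 to 10.4 CPM, S 5.96 to 10.5 CPM), Irf9 0.33 ± 0.24 (14.8 to 15.96 and 7.62 to 16.3 CPM), Stat2 0.15 ± 0.17 (18.2 to 21.3 and 13.9 to 19.8 CPM) and Irf7 -0.22 ± 0.42 (9.66 to 12.9 and 12.9 to 15.3 CPM). Irf7 was the one member with a lower mean in male In. Isg15 gave 0.13 ± 0.28 (6.27 to 8.09 and 4.95 to 7.40 CPM) and Mx1 0.44 ± 0.48 (1.44 to 4.27 and 1.14 to 3.41 CPM). Male S 4 held the lowest S value for 6 of the 8 members, all but Irf1 and Ifitm2.

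No pathway list had a passing gene in males at day 30 (edgeR). The medians were 0.02 for receptors and kinases, 0.11 for other STAT and IRF factors, 0.05 for sensors and adaptors, 0.06 for type I effectors and 0.46 for interferon gamma targets. Of all genes tested, 51.95% were higher in male In. Of 12 microglia markers, all were higher in In and none passed (median 0.34, summed level 836 to 1384 CPM in S and 1209 to 1709 CPM in In). The 5 tested red blood cell markers were higher too, and none passed (median 1.84). Markers of fibroblasts and meninges were higher in 7 of 7, none of which passed (median 0.62; 146 to 168 CPM in S and 158 to 305 CPM in In, with Col1a2 at 0), and oligodendrocyte markers were higher in 0 of 8 (median -0.31). The part of these cells in the Ifitm2 difference was not tested.

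In females at day 30, no member passed between In and S either, against 0.0332% of genes that rose and 0% that fell. Without adjustment Irf7 alone had a p under 0.05, as did 1.18% of genes in the higher direction. DESeq2 called 33 genes and no member. The median of the members was 0.29, against -0.0015 over all genes, and 7 of the 8 were higher in In. Of all genes tested, 49.5% were higher in In. For Irf9 and Isg15 all In libraries lay above all S libraries, as held for 4.21% of all genes.

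Irf7 had the largest female difference. It stood at 11.3, 14.9 and 20.8 CPM in female In 1, 2 and 3 and at 9.40, 12.3 and 2.40 CPM in female S 1, 2 and 3. Female S 3 was far below the other S libraries, while S 2 lay above In 1. The log2 difference was 0.96 ± 0.41 (unadjusted p = 0.0362 and adjusted p = 0.99995, edgeR), and it was 0.53 without female S 3. Isg15 stood at 5.66, 6.14 and 6.70 CPM in In and at 5.57, 4.62 and 2.95 CPM in S, where S 3 was again the lowest. Its difference was 0.49 ± 0.27 (95% interval -0.08 to 1.07), and 0.28 without female S 3. Irf9 stood at 15.6, 15.6 and 18.1 CPM in In and at 15.6, 14.4 and 10.4 CPM in S, with the highest S library just under the lowest In library, and gave 0.29 ± 0.23, or 0.135 without female S 3.

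The remaining female values overlapped. Ifitm2 was at 16.4, 12.5 and 13.3 CPM in female In and at 17.7, 15.1 and 15.0 CPM in female S, a difference of -0.18 ± 0.21 (95% interval -0.62 to 0.26). It was the one member that was lower in female In. Irf1 gave 0.28 ± 0.25 (10.6 to 12.3 CPM in In, 7.61 to 11.8 CPM in S), Stat2 0.24 ± 0.17 (25.8 to 28.9 and 20.3 to 26.4 CPM), Ifitm3 0.30 ± 0.24 (17.6 to 24.3 and 14.8 to 17.9 CPM) and Mx1 0.15 ± 0.47 (1.55 to 2.54 and 1.54 to 2.08 CPM). All 8 members had an adjusted p of 0.99995 in this comparison (edgeR).

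Of the pathway lists, none had a passing gene in females at day 30. Of 29 other type I effectors 25 were higher in In (median 0.30), where males had 16 of 29 (median 0.06). Among all genes tested, 49.5% were higher in female In and 51.95% in male In. In the difference of these effects between the sexes, no gene of this list passed (edgeR, median 0.16). In female In, interferon gamma targets were higher in 9 of 11 (median 0.31), while receptors and kinases (-0.00028) and sensors and adaptors (-0.05) were centred near 0. None of the 12 microglia markers was higher in female In (median -0.14; summed level 1184 to 1570 CPM in S and 1100 to 1540 CPM in In). Choroid plexus markers were higher in 7 of 7, 3 of which passed (median 6.13; 2.87 to 3.94 CPM in S and 30.8 to 247 CPM in In), with the choroid plexus markers Ttr and Kcnj13 at 0 in all day 30 libraries. Ependymal markers were higher in 9 of 9, of which 1 passed (7.61 to 11.5 CPM in S and 19.3 to 34.7 CPM in In). Their part in the female differences was not tested.

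**Figure D3:**
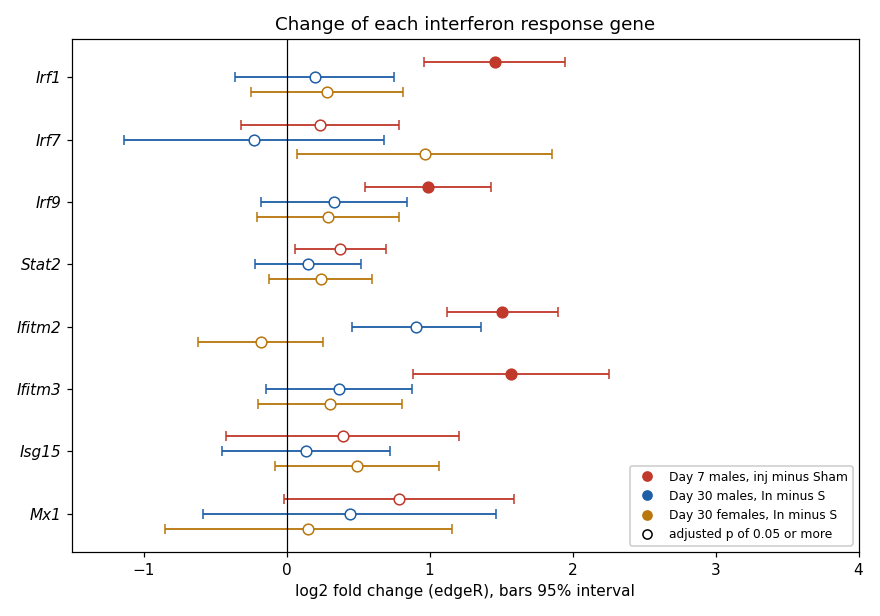
Log2 fold change (horizontal axis) of each member (vertical axis) at day 7 in males and at day 30 in males and females, with 95% intervals; filled points passed an adjusted p of 0.05. The filled points are Irf1, Irf9, Ifitm2 and Ifitm3 at day 7, and at day 30 Ifitm2 is at 0.91 in males and at -0.18 in females.

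Whether the day 30 difference depended on sex was read from the difference of the In minus S effects, female minus male. No member passed, and 0% of 15074 genes did (edgeR); DESeq2 called 6 genes and no member. Ifitm2 had the smallest p of the members, with a difference of -1.09 ± 0.30 (95% interval -1.71 to -0.46, unadjusted p = 0.00206, adjusted p = 0.940); 1.84% of genes in the higher and 2.26% in the lower direction had an unadjusted p under 0.05. Irf7 differed the other way, by 1.19 ± 0.59 (95% interval -0.08 to 2.46, adjusted p = 0.940), and by 0.76 without female S 3. The other 6 members ranged from -0.29 to 0.36, and 5 of these 6 changed sign under at least 1 alternative. The median over the members was 0.02, against -0.01 over all genes.

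Levels were also set against each other between the sexes at day 30. In S, no member passed, against 2.97% of all genes, 1.7% called higher in females and 1.27% called lower. Stat2 was at 26.4, 20.3 and 21.7 CPM in female S 1, 2 and 3 and at 19.8, 18.5 and 13.9 CPM in male S 1, 2 and 4, all females above all males, as held for 15.2% of all genes, with a log2 difference of 0.39 ± 0.17 (adjusted p = 0.237). Ifitm2 gave 0.37 ± 0.21 (adjusted p = 0.359) and the other 6 members ranged from -0.77 to 0.31. In In, 1 member passed: Ifitm2 was lower in females by a log2 difference of -0.71 ± 0.21 (adjusted p = 0.0344), where 6.1% of all genes were called higher and 6.59% lower. All female In libraries (12.5 to 16.4 CPM) lay below all male In libraries (21.3 to 25.7 CPM), as held for 15.5% of all genes. This call was lost without female In 2 (-0.63, adjusted p = 0.151), female In 3 (-0.67, 0.115), male In 1 (-0.63, 0.0859) or male In 3 (-0.74, 0.0606), without male In 1 and male S 4 together (-0.63, 0.0816), and in a fit of the compared groups alone (-0.72, 0.0564). Stat2 was higher in female In by 0.47 ± 0.17 (adjusted p = 0.0814), and the other 6 members ranged from -0.68 to 0.42.

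These differences between the sexes depend on the scale. With library totals in place of TMM factors the median of all genes moved to 0.88 in S and 0.94 in In, 5 members passed as higher in females in each, and Ifitm2 in In was at 0.18. Relative to that median Ifitm2 remained lower in female In and Stat2, at 1.39, higher. Among pathway genes, Jak1 (0.80, edgeR adjusted p = 0.0118) and the type I effector Parp14 (1.25, adjusted p = 0.0463) passed as higher in female S. Of all genes tested, 1.7% were called higher in female S and 1.27% lower. Tested in each comparison were 9 receptors and kinases, 8 other STAT and IRF factors and 16 sensors and adaptors. The other lists held 29 tested type I effectors, 11 interferon gamma targets and 6 negative regulators. In In, 8 pathway genes passed as higher in females: Ifnar1 (0.77), Jak1 (0.56), Stat3 (0.59), the sensors Tlr7 (0.65) and Tlr9 (3.33), the ubiquitin ligase Trim25 (1.59), Parp14 (1.38) and Lgals3bp (0.79). Another 3 passed as lower: Irf3 (-0.89), the type I effector Ifi27 (-0.61) and the immunoproteasome subunit Psmb9 (-0.91). Among all genes tested, 6.1% were called higher in female In and 6.59% lower. The size for Tlr9 is uncertain, since it had 6 counts over the 3 male In libraries. Its mean there, 0.167 CPM, was under the level of 3 counts (0.216 to 0.285 CPM). With TMM scaling, 52.6% of all genes tested were higher in female S. Endothelial markers were higher in 11 of 12 in female S (median 0.46) and pericyte and smooth muscle markers in 9 of 9 (median 0.90). The part of these cells in the Stat2 difference was not tested. In In the same lists gave medians of 0.44 and 0.70, choroid plexus markers 6.16 and red blood cell markers -2.42, and their part in the Ifitm2 difference was not tested.

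The male effects of the 2 days were compared in 1 fit of the 12 male libraries, as the day 30 effect (In minus S) minus the day 7 effect (inj minus Sham). No member passed, against 5.27% of 11693 genes called higher and 7.71% called lower (edgeR). All 8 members had a smaller effect at day 30, with a median of -0.48 against 0.07 over all genes. The difference was above 0 for 53.9% of all genes tested. Irf1 came nearest to a call at -1.20 ± 0.39 (unadjusted p = 0.00775, adjusted p = 0.0558), and DESeq2 called it (adjusted p = 0.038). Ifitm3 gave -1.15 ± 0.44 (adjusted p = 0.104), Irf9 -0.60 ± 0.36 (adjusted p = 0.297) and Ifitm2 -0.55 ± 0.31 (adjusted p = 0.268), while Irf7, Stat2, Isg15 and Mx1 lay between -0.40 and -0.17. Without male S 4, Irf1 (-1.41, adjusted p = 0.0368), Irf9 (-0.95, 0.0455) and Ifitm3 (-1.47, 0.0402) passed.

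In the other pathway lists, several day 7 rises were smaller at day 30. Of 7 receptors and kinases, 4 had a lower effect that passed: Ifngr1 (-2.26), Ifnar1 (-1.88), Il10rb (-1.69) and Ifngr2 (-0.99). Of 12 sensors and adaptors 3 did (Tmem173 -3.20, Tlr7 -2.37 and Tlr3 -2.36), of 26 type I effectors 2 did (Lgals9 -1.17 and Lgals3bp -1.41), and of 10 interferon gamma targets 1 did (Tap1 -2.21). The low Sham counts of Il10rb, Tmem173, Tlr3 and Tap1 limit the sizes of their differences as well. Markers moved in the same direction: all 12 endothelial markers (median -2.66), 9 of 12 microglia markers (median -1.998) and 8 of 10 pericyte and smooth muscle markers (median -2.35) had a lower effect that passed. Their part in the members' smaller effects was not tested.

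Across the 12 day 30 libraries the members tended to be high or low together. Over the 28 pairs of members the median Pearson correlation of log2 CPM was 0.38 and 82.1% were above 0; with the group means removed it was 0.45 and 89.3%. Irf7 and Isg15 were the most alike pair (r = 0.80, n = 12 libraries), followed by Irf1 and Stat2 (r = 0.80), while Irf7 and Ifitm2 were at -0.15. Both Irf7 (-2.23) and Isg15 (-0.998) were lowest in female S 3, as log2 CPM minus the gene's mean. The value of 0.80 for this pair leans on that library, and r without it was not computed. These libraries share depth, scaling and tissue composition, so the correlations are given as a description. No such value was computed over pairs of other genes, so the shares above 0 cannot be called particular to the members. The library male S 4 held the lowest of the 12 values for 4 of the 8 members, and male S 2 and female S 3 for 2 each. Of 15066 other genes, the ones most like the members' mean standardised level were Myd88, an adaptor of Toll-like receptors (r = 0.87, rho = 0.91), RGD1564149 (r = 0.86), the neuropeptide Y receptor Npy5r (r = 0.85), the class I histocompatibility gene RT1-CE2 (r = 0.83) and the replication factor subunit Rfc5 (r = 0.83). Group means were 0.141 to 0.504 CPM for RGD1564149, near the level of 3 counts, and 0.519 to 1.21 CPM for Npy5r. As the top of a ranking, these genes were not tested.

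**Figure D4:**
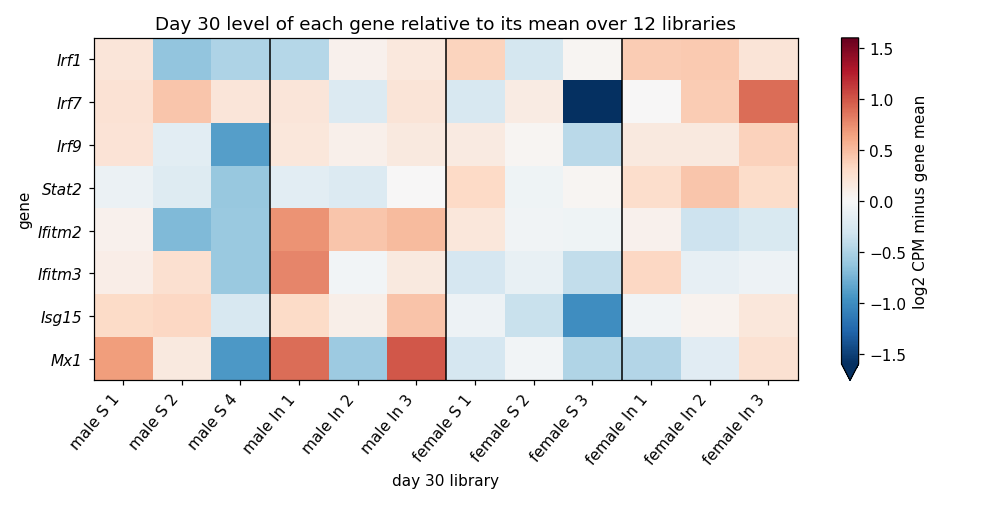
Level of each member (rows) in each day 30 library (columns), as log2 CPM minus the gene's mean over the 12 libraries; red is above and blue below that mean, and black lines separate the groups. Male S 4 is below the mean for every member but Irf7, and Irf7 in female S 3, at -2.23, lies beyond the end of the colour scale.

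The interferon genes themselves were listed in the day 30 table. Of 12, 10 had no count in any library, and the 12 together had 5 counts among 210748419, from Ifna4 (3) and Ifne (2). A count of 0 over all libraries allows up to 0.0142 CPM of the summed counts (3 counts, counting error only). The day 30 table also listed at 0 genes that had reads at day 7, Ifit2 and Ifit3 among them, so a 0 there does not show that a gene was silent.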

How the data were processed

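Each day has a table of raw counts per gene symbol, deposited by the authors. HISAT2, edgeR and the build rn6 are named in the submitters' processing notes without versions. A PureLink kit for the polyA RNA and library construction by Novogene are stated per the labels. The day 30 counts, per the summary lines of the deposited table, come from uniquely aligned reads, so reads shared by near-identical copies can be missing; 9706 of its genes have no read. The day 7 table holds no gene without a read, so genes were removed from it upstream, by a step not given in the sources used here. No column was left unused.

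The test was the robust quasi-likelihood F test of edgeR 4.0.16 in R 4.3.3, after filterByExpr and TMM scaling, with Benjamini-Hochberg adjustment over all genes tested. One fit held the 6 day 7 libraries (common biological coefficient of variation 0.175), another the 12 day 30 libraries (0.259), and the last, over genes in both tables, the 12 male libraries (0.226). A gene was said to rise or fall when its adjusted p was under 0.05. CPM use TMM-scaled library totals, and SE and 95% intervals come from the fitted F statistic.

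The members and lists were chosen with earlier results of these data known, so the list counts are descriptions. All 8 members are named in each comparison, in ranges where fewer mattered, with up to 4 genes of each list by adjusted p. Jak1, Jak2, Eif2ak2, Cmpk2 and Rtp4 at day 7, the most alike pairs and the genes of the closing observations were picked with their values in view. Within every group, each pair of libraries lay further apart than sampling noise, and all were kept. The closest pair was Sham 1 and Sham 3 (chi-square per gene 3.48), against 35.1 and 31.6 for either with Sham 1-RNA and 12.0 to 92.6 in the other groups. On simulated counts with 100 genes changed at each size, the day 7 fit recovered 66% of the 2-fold and 99% of the 4-fold changes, with 9 false calls among 11786 genes. The day 30 fit for males recovered 36% and 73%, with 5 false calls among 15074. The simulated spread followed expression level alone, without the spread particular to each gene. Far fewer genes were changed than the 34.7% called at day 7, which alters the threshold on p. These rates therefore need not hold for the members.

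Alternatives were DESeq2 1.42.0, RLE size factors, library totals, limma-voom (limma 3.58.1) with sample weights, a filter at 1 CPM in 3 libraries or none, leaving out each library, a replicate block, Sham 1 summed with Sham 1-RNA, the compared groups alone, and, added after the data were seen, leaving out male In 1 and male S 4 together, and summing Sham 1 with Sham 3. Promoters are those of RefSeq, build GRCr8, which is not the build of the counts. Plots used matplotlib 3.10.9 and Python 3.11.15.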

Additional observations from a re-analysis of the deposited data

How the results depend on the processing

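The calls of Irf1, Irf9, Ifitm2 and Ifitm3 at day 7 held in all 14 alternatives, Sham 1 summed with Sham 3 among them (adjusted p from 0.000668 to 0.011). Over all 8 members and 7 comparisons, 45 of 904 recomputed values changed sign, 0 of them at day 7 and 22 in the sex difference of effects. The low depth of Sham limits Isg15 and Mx1, which had at most 17 counts there, and the counts of uniquely aligned reads limit Ifitm2, Ifitm3 and Mx1, which have close paralogs. Leaving out a library leaves 2 in that group.

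With library totals as the scale, the members' median was 1.17 at day 7, 0.80 for female minus male in S, 0.85 in In and -0.83 for day 30 minus day 7. With that scale 5 members and 8998 genes were called between the sexes in S, 5 members and 8969 genes in In (Ifitm2 at 0.18), and 2 members in the difference between days. DESeq2 called 2 genes in day 30 males, 33 in females, 6 in the difference of these effects, 1021 between the sexes in S, and 1 member between days. Limma-voom called 1 gene in males, 0 in females, 945 between the sexes in S, 2 members between the sexes in In and 2624 genes between days. No filter gave 10 genes in females and 1 member between days, and the filter at 1 CPM gave 1 member between days. The compared groups alone gave 0 genes in females, 946 between the sexes in S, and 0 members and 668 genes in In.

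Whether replicate numbers pair the day 30 samples could not be decided, because each group holds too few libraries. The correlations of same-numbered deviations were all positive, from 0.0040 to 0.13, and above 0.1 in 1 of 5 pairs. Those of differently numbered libraries ran from -0.158 to 0.106. The labels state no pairing, and the replicate block is given here alone. Under it, Stat2 (-0.050), Isg15 (-0.12) and Mx1 (-0.22) reversed in day 30 males, where the members' median was -0.020; the median of the sex difference of effects was 0.29, 10 genes passed in females and 21 between the sexes in S. Not every library correlated best with its own number. At day 7 no paired analysis was possible because inj and Sham share 1 number. Without male In 1 and male S 4, Ifitm3 (-0.12), Isg15 (-0.034) and Mx1 (-0.055) reversed in males, whose median was 0.0029, and 0 members passed between the sexes in In. The cause of these shifts was not tested.

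Leaving out each library in turn, the members' median ran from 0.74 to 1.21 at day 7, from -0.27 to 0.23 for the sexes in S, and from -0.74 to -0.29 between days. Isg15 in day 30 males ran from -0.026 to 0.23 (negative without male S 4), and Mx1 in day 30 females from -0.059 to 0.29 (negative without female In 3). Genes called ran from 0 to 1 in males, 0 to 24 in females (24 without female In 1), 66 to 418 between the sexes in S (66 without female S 1), 578 to 1908 in In (578 without female In 2) and 1004 to 2028 between days (1004 without inj 2). Members called ran from 0 to 1 between the sexes in In and from 0 to 3 between days (3 without male S 4).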

Other observations

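Genes that were read at day 7 and listed at 0 at day 30 included part of the interferon response. Of 12397 genes in both tables, 379 had at least 30 counts over the 6 day 7 libraries and 0 counts in all 12 day 30 libraries. Of 73 interferon pathway genes in both tables, 5 were among them. These were Ifit2 with 1015 counts at day 7, Ifit3 with 975, the chemokines Cxcl11 with 95 and Cxcl10 with 77, and the RNA-sensing synthetase Oas2 with 34. Ifit2 and Ifit3 encode proteins that bind foreign RNA. The difference between the tables was not tested, and values of these genes at day 30 were not used.

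Among genes outside the members, Usp18, which removes Isg15 from proteins and dampens type I interferon signalling, was at 0.99 ± 0.38 in day 30 females, In minus S (edgeR, unadjusted p = 0.0191), and the secreted glycoprotein Lgals3bp was at 0.70 in the same comparison (unadjusted p = 0.00679). In day 30 males Usp18 lay the other way, at -0.82 ± 0.40 (unadjusted p = 0.0555, edgeR), with 3.14 to 6.09 CPM in In and 6.67 to 8.66 CPM in S, and Lgals3bp was at 0.22. None of these values passed the adjustment over all genes. The membrane tether Bst2 was at 0.52 in both sexes.

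The summed level of the 8 members ran from 81.5 to 94.3 CPM in Sham and from 151 to 189 CPM in inj. At day 30 it ran from 70.3 to 108 CPM in male S and from 100.2 to 124.5 CPM in male In. In females it ran from 78.3 to 104 CPM in S and from 110 to 116 CPM in In. The lowest S values belong to male S 4 and female S 3. No member passed between In and S in either sex. The sum is led by the members with the most counts, and no test was run on it or on a difference between the sexes in it.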
